A study of Mus musculus with 9 samples.

Results

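The replication-dependent histone genes encode the 4 core histones H2A, H2B, H3 and H4 and the linker histone H1 that package newly copied DNA. They were taken here as the rows of the count table whose symbol is one of the clustered H1f1 to H1f6, H2ac, H2bc, H3c or H4c genes, or begins with one of the older Hist1h to Hist4h names. The rule found 65 of 52264 rows, namely 6 for H1, 18 for H2A, 17 for H2B, 12 for H3 and 12 for H4. On the mouse build GRCm38.p6, 54 of them lie on chromosome 13 and 10 on chromosome 3, and H2bc24 had no entry in the RefSeq table.

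The samples were 9 RNA sequencing libraries of mouse embryonic stem cells (ESCs) with the genotype β-catenin-/-, in 3 groups of 3. All were expanded on feeder-treated dishes with 3 µM CHIR-99021, 1 µM PD03 (a MEK inhibitor) and 40 ng/ml LIF and moved to N2B27 medium overnight, so every group, Control included, had met CHIR before the experiment. The groups then received no inhibitor (Control), BRD0705 (an inhibitor selective for the kinase GSK3α) or CHIR (CHIR-99021, an inhibitor of GSK3α and GSK3β) for 30 min, at doses not given in the sources used here. The labels do not say whether the 3 samples of a group came from separate cultures, so p-values measure the spread between these samples, which may be technical.

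Replication-dependent histone mRNAs are the main animal mRNAs that normally carry no poly(A) tail. Their 3′ end is cut just after a short hairpin, which the stem-loop binding protein SLBP holds, with the help of the U7 small nuclear ribonucleoprotein. The mRNAs accumulate in S phase and are degraded when DNA synthesis stops. Replication-independent histone genes such as H3f3a and H1f0 are expressed throughout the cell cycle and give polyadenylated mRNAs, while H2ax can give both a polyadenylated and a stem-loop mRNA. The protocols describe total RNA with a TruSeq V2 kit and RiboZero ribosomal RNA depletion, while the molecule label reads polyA RNA. Which applies was not resolved, and the level of these genes is one measurement that bears on it.

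The 3′ hairpin is the shared sequence feature of the group. It was searched for in GENCODE vM39 transcripts (GRCm39) as 16 bases with 6 paired bases on each side that start with GG and a 4-base loop that starts with TT. A match was found in 42 of the 64 genes with a transcript, in the canonical transcript of 40 and in another transcript of 2. The canonical transcripts of the 22 without a match were 312 (H4c12) to 2620 bases (H2bc21) long. A transcript annotated only to near the end of the coding sequence would give no match either. The search thus does not show that these 22 genes lack the hairpin. The same pattern occurred in the canonical transcript of 157 of 49494 rows, or 0.317%. There were 6 versions of the 16 bases. They are listed with the number of genes that carry each. The search fixed the pairing and the first bases of stem and loop. How far the hairpin varies between genes can thus not be read from these versions.
in 25 genes: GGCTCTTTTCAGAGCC
in 6 genes: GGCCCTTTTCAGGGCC
in 6 genes: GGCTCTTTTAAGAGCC
in 2 genes: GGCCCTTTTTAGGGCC
in 2 genes: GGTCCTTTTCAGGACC
in 1 gene: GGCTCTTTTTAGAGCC

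The 14 bases before the hairpin were not part of the search pattern, so their variation cannot be set against that of the hairpin. The windows below belong to the genes the results turn on, with the hairpin in capitals, read from the GENCODE transcripts in the direction of transcription.
H2ac24: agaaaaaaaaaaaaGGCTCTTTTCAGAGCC
H2ac23: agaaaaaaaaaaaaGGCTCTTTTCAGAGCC
H2bc4: tagcgaattccaaaGGCTCTTTTCAGAGCC
H1f2: ctaacaatccaaaaGGCTCTTTTCAGAGCC
H3c15: ccattccccacaaaGGCTCTTTTCAGAGCC
H4c9: caatgctacttaaaGGCCCTTTTTAGGGCC
H4c18: ctttctcaactaaaGGCCCTTTTCAGGGCC
H2ac18: cgagctcctaaaaaGGCTCTTTTCAGAGCC
The windows of H2ac24 and H2ac23 are identical and hold an unbroken run of 12 adenines directly before the hairpin. A run of at least 12 adenines anywhere in the canonical transcript occurred in 3 of 64 histone genes, these and H2ac6, and in 6.26% of the 49494 rows with a transcript. The median longest run in the histone genes was 4.

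The annotated transcripts also differed in how far they go on after the hairpin. H2ac24 ends 3 bases after it, H2ac23 and H4c18 31 bases after it, and H2ac18 35 bases after it. The transcripts of H4c9, H2bc4, H3c15 and H1f2 go on for 330, 373, 377 and 840 bases. In H2bc4 the hairpin is in 1 of 5 annotated transcripts, and the canonical one is spliced from 2 exons and lacks it. Of the 64 genes, 59 have a single exon, as is typical of histone genes.

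Promoters of the group share known elements. RefSeq (GRCm38.p6) promoter windows of 300 bases were given for 58 of the 65 genes, 59 windows in all, and were searched on both strands. A window was counted once for a motif if it held any match. TATAAA occurred in 34 of 59 windows (57.6%) against 13.6% of all 32851 windows. CCAAT, the letters NF-Y recognises, occurred in 51 of 59 (86.4%) against 37.4%, in every window of H1, H2A, H2B and H3 genes and in 3 of 11 H4 windows. The octamer ATTTGCAT, the letters Oct factors recognise, occurred in 7 of 15 H2B windows and 6 of 17 H2A windows, in none of the H1, H3 and H4 windows, and in 1.74% of all windows. These are matches of letters and not measured binding.

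Depth was 17359422 to 20773337 counts per library. All 10 pluripotent markers fixed for the check passed the filter on low counts, with a summed level of 5021 to 5399 CPM (counts scaled to a common library size with edgeR's TMM factors) over the libraries. The Ctnnb1 row, which encodes β-catenin, read 303 to 371 CPM in all libraries, and which part of the gene the deletion removes is not given in the sources used here. All 15 fibroblast markers, listed because the dishes were feeder-treated, were also counted. Their sum was 2575 to 3100 CPM in Control, 3258 to 3367 CPM with BRD0705 and 2925 to 3466 CPM with CHIR. Signal from stem cells and from other cells cannot be told apart in these bulk libraries, nor can fewer cells of a type from less RNA per cell.

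One row, H2ac24, held nearly all of the signal of the group. H2ac24 (older symbol Hist1h2ap) encodes a core histone H2A and lies at chr13:21833024-21833475 on GRCm38.p6, as a single-exon gene of 482 bases in GENCODE. Its counts were 29549, 29743 and 33160 in Control replicates 1 to 3, 31334, 28080 and 34933 with BRD0705, and 30367, 27095 and 30623 with CHIR. These make 274884 of the 287596 counts of all 65 rows, and 94.6 to 96.1% of them in each library. No library stood apart, and the ranges of the 3 groups overlapped.

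H2ac24 was among the most abundant rows of the whole table. Its mean level was 1572 ± 96.0 CPM (SD, n = 9), which placed it at rank 48 of the 26762 rows with counts. Per length it stood at 3260 CPM per kb of transcript, rank 10 of 49494 rows with a length. Its next-door gene H4c18, an H4 gene at chr13:21831792-21832197, carries a hairpin too and stood at 2.84 CPM per kb, a level 1147-fold lower. The closest relative in sequence, H2ac23, had 26 counts in all libraries together, and 93.1% of the 50-base stretches of the H2ac24 transcript also occur in H2ac23. Whether the counts belong to the H2ac24 locus alone was not tested.

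**Figure D1:**
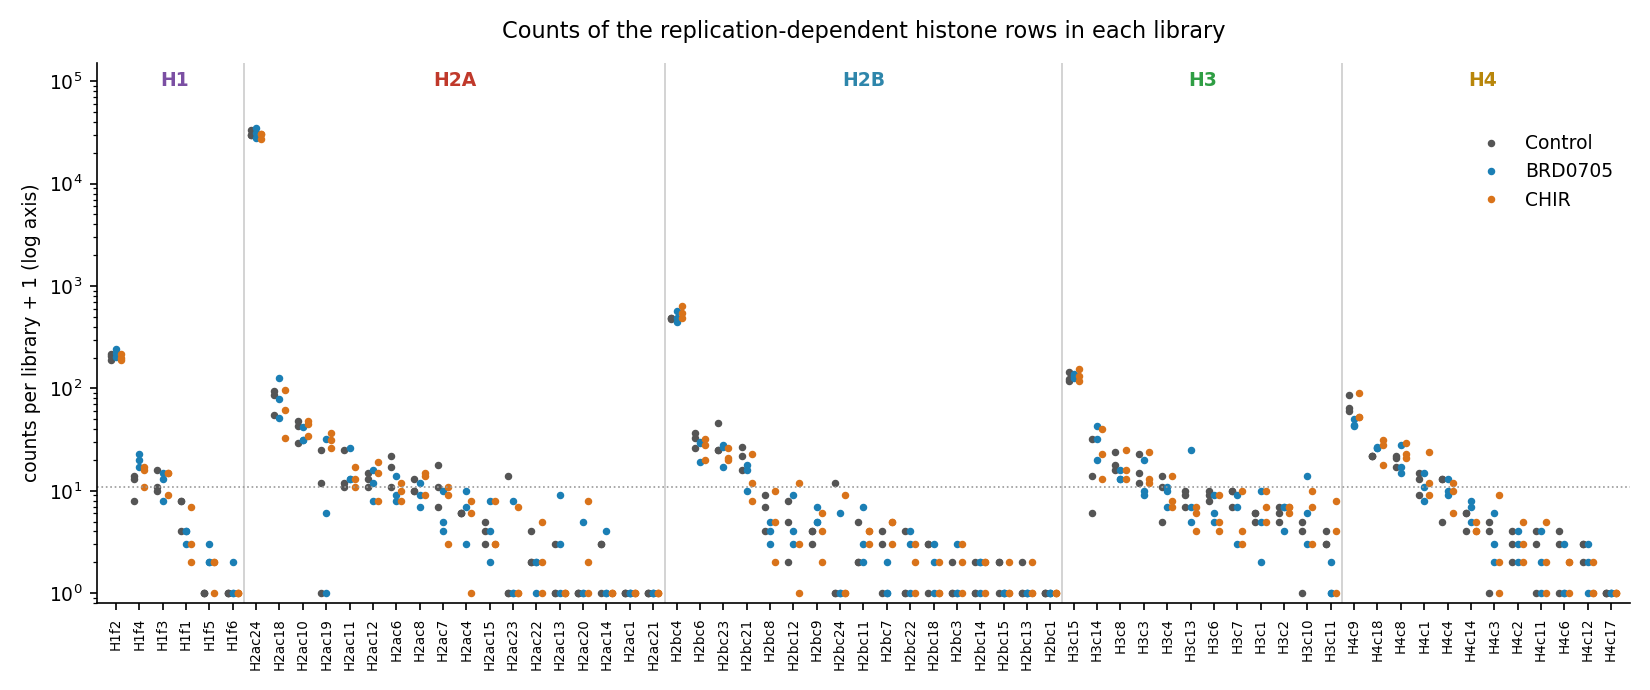
Counts plus 1 of each of the 65 histone rows (log axis), with 1 point per library coloured by group, rows sorted by total count within each class and a dotted line at 10 counts. H2ac24 sits between 27095 and 34933 counts in all 9 libraries, the next row, H2bc4, between 444 and 636, and most rows lie under the dotted line.

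The other 64 rows were low. Together they held 12712 counts, 66.6 to 85.7 CPM in each library, or 0.00667 to 0.00854% of its counts. H2bc4 alone gave 36.2% of them, and H2bc4, H1f2, H3c15, H2ac18 and H4c9 together 69.7%. The symbols H2ac1, H2ac21, H2bc1 and H4c17 had 0 counts in every library. A count of 0 allows up to 3 counts over all libraries, or 0.0171 CPM, for counting error only. Counts totalled under 50 in 36 of the 65 rows and at least 500 in 6.

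Classes were unequal in level. With H2ac24 set aside, the 17 other H2A rows summed to 10.4 ± 0.94 CPM (SD, n = 9), H1 to 12.3 ± 1.17, H2B to 31.0 ± 3.03, H3 to 11.8 ± 1.26 and H4 to 7.07 ± 1.13. H2B, H1, H3, H2A and H4 is thus their order, in which the neighbours H1 and H3 differ by less than 1 SD. With H2ac24 included, H2A stood at 1582 ± 96.3 CPM. The core histones enter the nucleosome in equal numbers. Their summed levels here were not equal, but with the library type unresolved these sums cannot be read as amounts of mRNA in the cells.

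Per length, the members other than H2ac24 lay low in the table. Their median was 0.309 CPM per kb over the 63 with a length, against 4.89 for the 15056 tested rows with a length, and 59 of the 63 lay below that median. The highest of them, H2bc4, stood at 15.4 CPM per kb, percentile 74.0 of the tested rows. H1f2, H3c15 and H4c9 read 6.88, 6.59 and 4.19 CPM per kb. The listed replication-independent histone genes had a median of 106 CPM per kb over the 11 with a length. H3f3b and H3f3a, which encode H3.3, read 572 ± 24.1 and 538 ± 23.4 CPM (SD, n = 9), H2ax 506 ± 41.2 CPM and H2az1 446 ± 40.7 CPM. The 13 rows of that list summed to 2543 to 2768 CPM, more than the 65 replication-dependent rows, at 1509 to 1746 CPM, in every library.

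**Figure D2:**
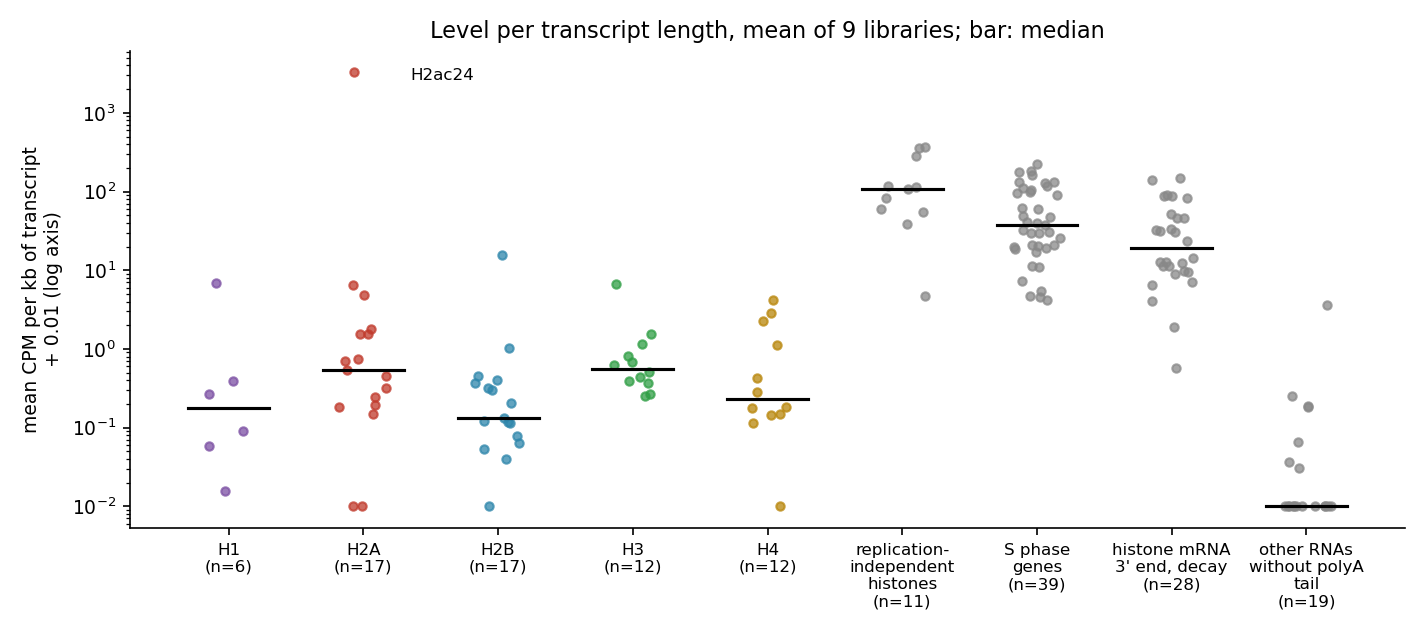
Mean level over 9 libraries in CPM per kb of transcript plus 0.01 (log axis), with 1 point per gene and a bar at the median, for the 5 histone classes and 4 lists of other genes. The histone rows other than H2ac24 lie at or below 15.4 CPM per kb, most of the replication-independent histones and S phase genes lie above that, and 12 of 19 other RNAs without a poly(A) tail sit at 0.

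Genes of the S phase programme, in which histone mRNAs are made, were counted well in the same libraries. All 39 listed replication and S phase genes passed the filter, with a median of 37.0 CPM per kb. So did all 28 listed genes of histone mRNA 3′ end formation and decay, among them Slbp at 101 ± 5.93 CPM (SD, n = 9). Lsm10 and Lsm11, which encode U7-specific ring proteins, read 15.8 ± 0.89 and 12.1 ± 0.81 CPM. Other RNAs that normally lack a poly(A) tail were hardly counted. Of 35 such symbols listed, 19 had a row in the table, among them small nuclear, small nucleolar and Y RNAs. Of these 19 rows, 12 had 0 counts everywhere and 7 had any, and their sum was 1.05 to 1.82 CPM per library. Rpph1, the RNA of ribonuclease P, gave most of it at 1.14 ± 0.15 CPM, while the telomerase RNA Terc had 4 counts in all. Many of these RNAs are short, and the length selection of the libraries is not given in the sources used here, so the part of library type in these low values was not tested. Of 8 ribosomal RNA symbols listed, 2 had a row, the mitochondrial mt-Rnr1 and mt-Rnr2. They read 309.3 ± 22.5 and 417.5 ± 50.4 CPM (SD, n = 9).

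Counts of the low members were compared with the length of transcript annotated after the hairpin. The 20 genes with at least 100 bases after it had a median of 86 counts over all libraries (range 1 to 4607), and 11 of them passed the filter. The 22 genes with fewer had a median of 41 counts (range 0 to 274884), and 7 passed. H2ac24 is the exception among the short ones, since without it their range ended at 673 counts, the value of H2ac18. Across the 42 genes, Spearman's rho between this length and total counts was 0.30, or 0.39 over the 41 without H2ac24. With CPM per kb in place of counts it was -0.07. A longer annotated transcript also takes up more reads, and genes are not independent replicates, so these are descriptions.

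**Figure D3:**
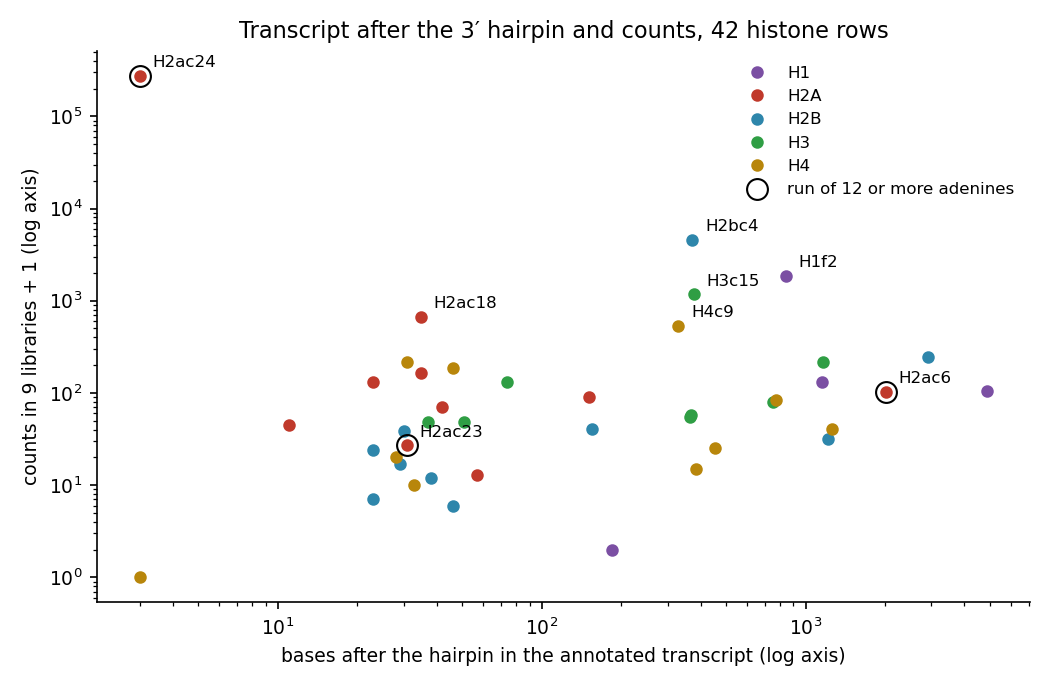
Total counts in 9 libraries plus 1 against the bases annotated after the 3′ hairpin, both on log axes, for the 42 histone genes with a hairpin, coloured by class. H2ac24 stands alone at 274884 counts with 3 bases after the hairpin, and black rings mark the 3 genes with a run of 12 or more adenines, of which H2ac23 and H2ac6 had 26 and 102 counts.

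Near-identical copies make several rows uncertain one by one. In 32 genes at least 50% of the 50-base stretches also occur in another annotated gene, and in 9 at least 90%. H2ac18 and H2ac19, a pair of H2A genes on chromosome 3 (chr3:96245497-96246052 and chr3:96239779-96240374) are 1 such pair. H2ac18 had 94, 54 and 86 counts in Control, 50, 77 and 125 with BRD0705 and 95, 60 and 32 with CHIR. H2ac19 had 0, 24 and 11, then 31, 5 and 0, then 30, 25 and 36. H2ac19 shares 100% of its stretches with other genes. Across the 9 libraries the coefficient of variation (CV) of the level was 34.5% for H2ac18 and 79.3% for H2ac19, but 17.9% for their sum, against 10.4% from counting alone. That sum varied less than either row. For the H3 genes H3c14 and H3c15 the CV was 54.7% and 9.09%, and 13.8% for the sum, so there the sum varied more than H3c15 alone, whose counting error is 8.76%. H2bc23 and H2bc24, 2 H2B genes that share 100% of their stretches, had CVs of 29.4% and 158%, H2bc24 with counts in 3 libraries only, and 25.2% for the sum. The level of H2ac24 varied by 6.11%, against 0.572% from counting alone.

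Effects of the inhibitors were tested on the 24 rows that passed the filter on low counts, fitted with all 15366 such rows in edgeR. They comprise 3 H1, 8 H2A, 4 H2B, 4 H3 and 5 H4 rows, and the other 41 were not tested. A row passed with about 10 counts or more in at least as many libraries as a group holds, so the tested rows are the abundant ones. Low rows had wide intervals. For H2ac24 the spread between libraries, 6.11%, was larger than the 0.572% from counting alone. The 95% interval of the log2 fold change of CHIR against Control reached 0.12 to either side for H2ac24 and a median of 0.70 over the 24 rows.

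With BRD0705 against Control, 0 of the 24 histone rows passed an adjusted p of 0.05 (edgeR's quasi-likelihood F test, adjusted by Benjamini and Hochberg over all rows), against 1.22% of all tested rows (0.69% higher and 0.534% lower). DESeq2 and limma voom also called 0. At an unadjusted p under 0.05 there were 4, against 15.9% of all rows, and 6 had groups that did not overlap, against 20.2%. The median log2 fold change was 0.08, against -0.0038 over all rows, with 13 values above 0 and 11 below. The shares were near those of the whole table.

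The largest row gave the narrowest bound in this comparison. H2ac24 had 1510 ± 107 CPM in Control and 1644 ± 41.3 CPM with BRD0705 (SD, n = 3 each), a log2 difference of 0.12 with a standard error of 0.06. Its 95% interval ran from -0.0018 to 0.25 and its adjusted p was 0.323. Control replicate 3, at 1634 CPM, lay inside the BRD0705 range, and without it the difference was 0.19 (adjusted p 0.214). The most abundant linker histone, H1f2 (chr13:23738807-23739531), had 216, 206 and 190 counts in Control and 200, 222 and 239 with BRD0705. Scaled to depth these groups did not overlap, but the log2 difference of 0.21 ± 0.10 (standard error) had an adjusted p of 0.313.

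The rows with the smallest unadjusted p in this comparison were low ones. H1f4, another linker histone, had 12, 13 and 7 counts in Control and 19, 16 and 22 with BRD0705, with a log2 difference of 0.92 ± 0.33 (standard error) and an adjusted p of 0.182. H4c9 had 85, 64 and 59 against 43, 49 and 42, with a difference of -0.53 ± 0.22 and an adjusted p of 0.236, or -0.35 without Control replicate 1. Neither passed, and their groups did not overlap. H3c14 had 13, 31 and 5 against 42, 31 and 19, with a difference of 1.01 ± 0.47 and an adjusted p of 0.304. Its difference was 1.86 without Control replicate 2 and 0.60 without Control replicate 3, with adjusted p of 0.183 and 0.662. H3c14 overlaps the same-strand gene Gm20634, which holds 100% of its 50-base stretches. With no filter on low counts its adjusted p was 0.0328.

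With CHIR against Control, 1 of the 24 histone rows passed, H2bc4, which was higher with CHIR, against 6.3% of all tested rows (2.52% higher and 3.78% lower). DESeq2 and limma voom called 1 each. The groups did not overlap in 3 rows, against 25.1% of all rows, and an unadjusted p under 0.05 was found in 1, against 20.5%. The median log2 fold change was 0.14, against -0.0091 over all rows, with 17 values above 0 and 7 below.

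H2bc4 rose with CHIR. It is the H2B gene with the most counts and spans chr13:23684199-23692480 on GRCm38.p6. It had 487, 475 and 482 counts in Control, 481, 444 and 572 with BRD0705, and 636, 548 and 482 with CHIR. In CPM, which corrects for depth, the means were 23.6 ± 0.52, 26.1 ± 0.99 and 29.4 ± 2.76 (SD, n = 3 each). All 3 CHIR libraries lay above all 3 Control libraries, with CHIR replicate 3 the lowest of them at 26.3 CPM and Control replicate 1 the highest of its group. The log2 difference was 0.32 with a standard error of 0.07 and a 95% interval of 0.16 to 0.48, 1.25-fold, with an adjusted p of 0.0143 by edgeR. All 3 BRD0705 libraries also lay above all 3 Control libraries. That log2 difference was 0.14 ± 0.07 (standard error), with a 95% interval of -0.01 to 0.30 and an adjusted p of 0.364 by edgeR.

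The call of H2bc4 with CHIR was lost without any 1 of 3 libraries. It passed in 6 of 9 fits that leave out 1 library, and the adjusted p was 0.0537 without Control replicate 2, 0.0639 without CHIR replicate 1 and 0.059 without CHIR replicate 2. It passed in all 11 other alternatives. Over these 20 fits the log2 difference was 0.27 to 0.40. H2bc4 overlaps the same-strand gene Gm55646, and it shares 25.3% of its 50-base stretches with other genes. Summed with 10 other H2B rows that share sequence, the difference was 0.26 ± 0.07 (standard error) with an adjusted p of 0.0409. The other 3 tested H2B rows had log2 values below 0 in the same comparison, and none passed. Of the 15 fibroblast markers, 3 also passed with CHIR, against 6.3% of all tested rows. They were Col1a1, Col5a1 and Col6a2, all higher, with adjusted p of 0.0407, 0.0481 and 0.0432 by edgeR. For Col1a1 and Col5a1 the CHIR and Control libraries overlapped. The other 12 did not pass, and 13 of 15 values were above 0 with a median of 0.18. With BRD0705, where H2bc4 stood higher than in Control but was not called, 2 of the 15 markers rose (Col1a1 and Col5a1). Of all tested rows 1.22% were called there. Again 13 values were above 0, and the median was 0.22. Their part in the H2bc4 result was not tested.

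**Figure D4:**
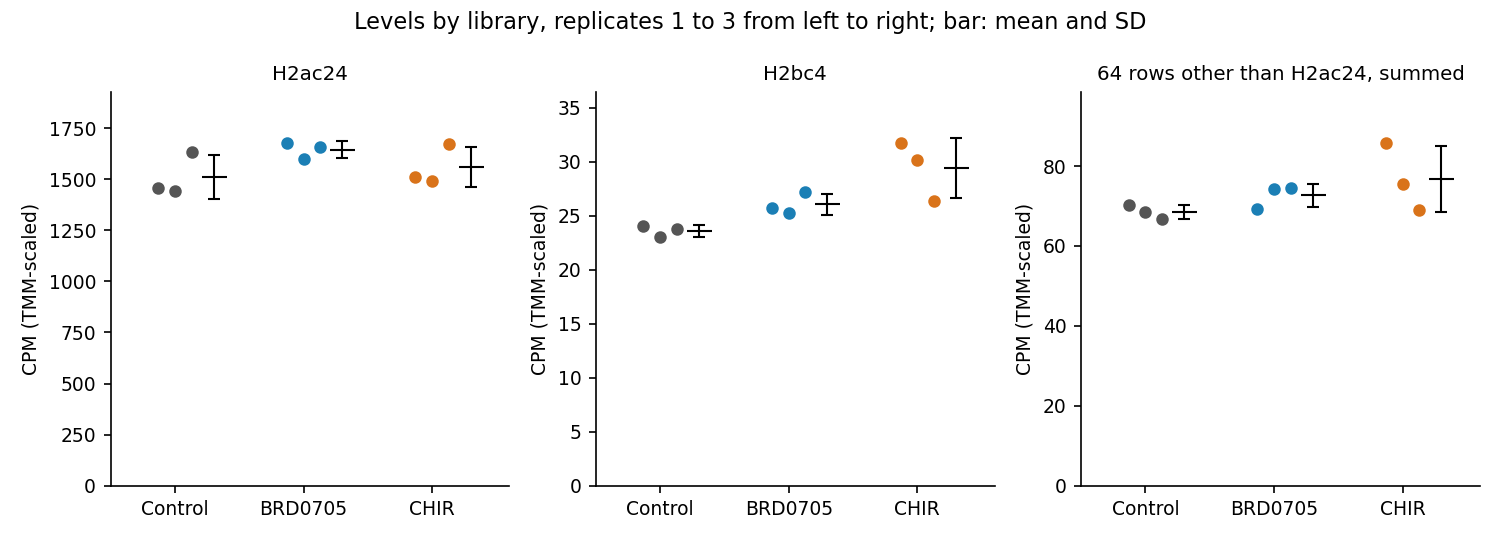
Level in CPM scaled by edgeR's TMM factors, from 0, for H2ac24, H2bc4 and the sum of the 64 rows other than H2ac24, with 1 point per library and the group mean with its SD beside them. The groups overlap for H2ac24, while the 3 CHIR libraries of H2bc4, between 26.3 and 31.7 CPM, lie above the 3 Control libraries, whose mean is 23.6 CPM. The 3 BRD0705 libraries of H2bc4 lie above the Control libraries too.

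Other rows of this comparison did not pass. H2ac24 stood at 1560 ± 99.6 CPM with CHIR (SD, n = 3), a log2 difference of 0.05 from Control with a standard error of 0.06, a 95% interval of -0.08 to 0.17 and an adjusted p of 0.731. H2ac19 had the widest difference among the 3 rows with the smallest p, 1.49 ± 0.71 (standard error) with an adjusted p of 0.245, and 0.92 without Control replicate 1 or 2.55 without Control replicate 2. That row shares its sequence with H2ac18 and Gm20634 as given above, and how reads were assigned among the 3 was not tested. For the sum of H2ac18 and H2ac19 the difference was 0.16 ± 0.18 with an adjusted p of 0.686. With no low-count filter H2ac19 alone reached an adjusted p of 0.000554. H2ac6, which overlaps H2bc4 on the opposite strand and had 21, 10 and 16 counts in Control and 7, 9 and 11 with CHIR, had a difference of -0.68 ± 0.41 and an adjusted p of 0.383, or -0.40 without Control replicate 1. Use of strand in the counting is not given in the sources used here, so reads of H2ac6 and H2bc4 cannot be told apart where they overlap.

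The leading H3 and H4 rows gave no call either. H3c15 (chr3:96238479-96239127) had 142, 117 and 123 counts in Control, 130, 125 and 136 with BRD0705 and 153, 130 and 118 with CHIR. Its log2 differences from Control were 0.13 ± 0.12 with BRD0705 and 0.18 ± 0.12 with CHIR (standard errors), with adjusted p of 0.675 and 0.453, and without Control replicate 1 they were 0.22 and 0.28. H4c9 (chr13:22040960-22041362) had 89, 52 and 52 counts with CHIR, and its difference from Control was 0.00024 ± 0.20. CHIR replicate 1 was the high library in both rows.

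Directly compared, BRD0705 and CHIR gave 0 of 24 histone rows past the threshold by edgeR, against 7.77% of all tested rows (4.8% higher and 2.97% lower). DESeq2 and limma voom called 0 too. An unadjusted p under 0.05 was found for 2 rows, against 22.5% of all rows, and groups did not overlap in 2, against 26.7%. BRD0705 and CHIR are inhibitors that differ in how far they spare GSK3β, and their doses are not given, so the values are set side by side. For H2bc4 the log2 difference of BRD0705 from CHIR was -0.17 ± 0.07 (standard error), with a 95% interval of -0.33 to -0.02 and an adjusted p of 0.165, and -0.12 to -0.25 over the alternatives. For H4c9 it was -0.53 ± 0.22, with no overlap and an adjusted p of 0.155, and -0.28 without CHIR replicate 1 (adjusted p 0.538). For H2ac24 it was 0.08 ± 0.06, with an interval of -0.05 to 0.20 and an adjusted p of 0.49. The test of H2bc4 thus does not show that CHIR and BRD0705 differ in their effect on it, and the comparisons with Control share the Control libraries.

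**Figure D5:**
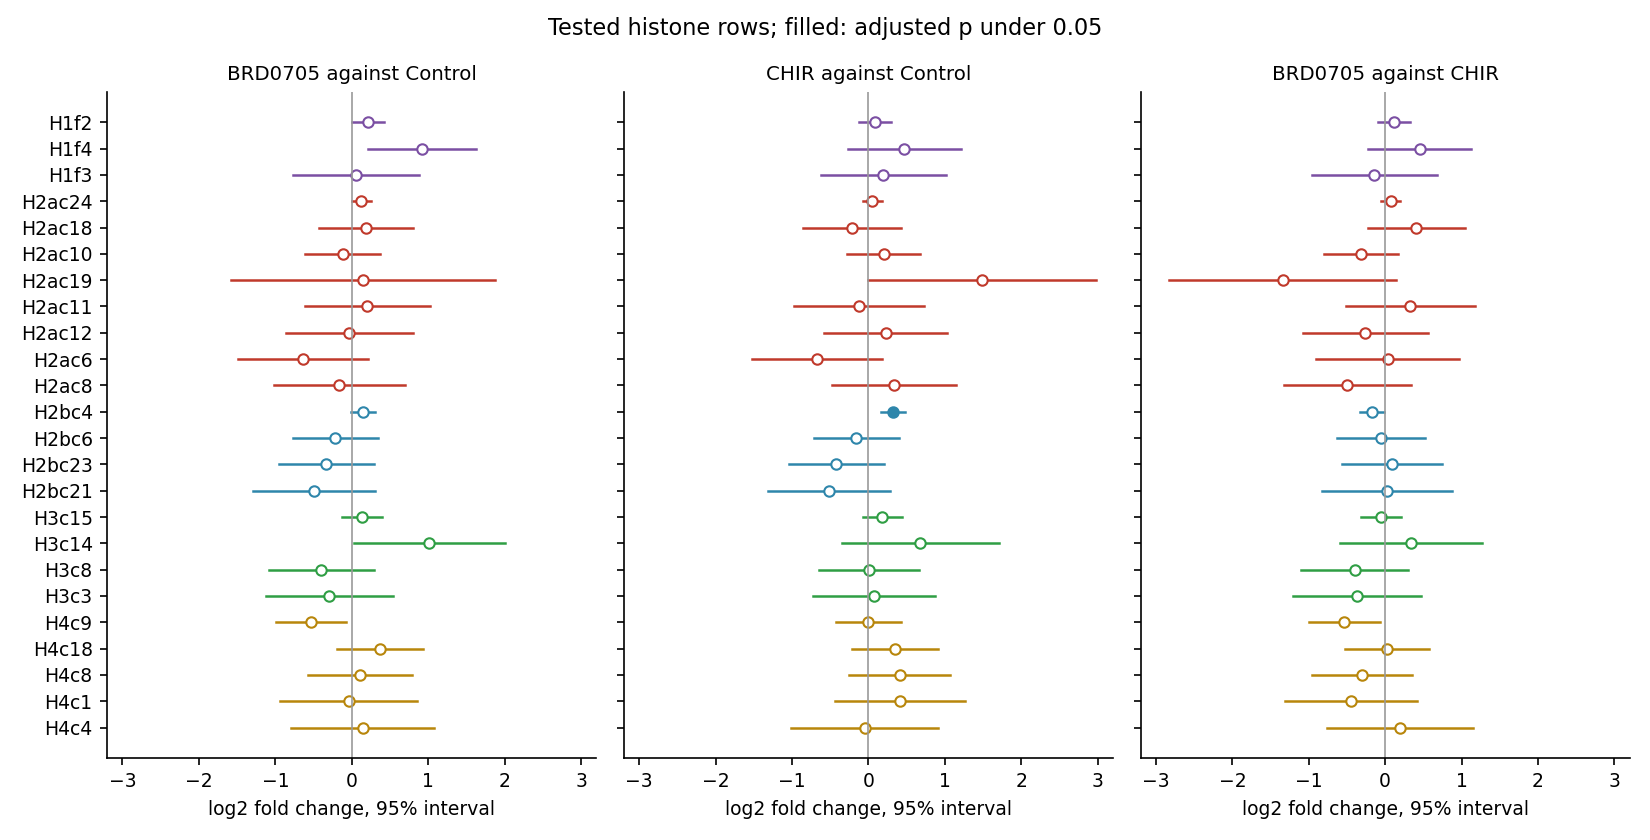
Log2 fold changes (first group named against the second) with 95% intervals for the 24 tested histone rows in the 3 comparisons, coloured by class and sorted by total count within a class. The 1 filled point, H2bc4 with CHIR against Control at 0.32, is the row past an adjusted p of 0.05, and the intervals of low rows such as H2ac19 span more than 2 log2 units.

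Sums by class, which were not tested, overlapped between groups in some classes and not in others. H1 summed to 11.4 ± 0.75, 13.4 ± 1.17 and 12.2 ± 0.72 CPM in Control, BRD0705 and CHIR (SD, n = 3 each), with all BRD0705 libraries (12.3 to 14.6) above all Control libraries (10.5 to 11.9). H2B summed to 28.8 ± 0.67, 30.4 ± 1.09 and 33.9 ± 3.87 CPM, and H2bc4 is the largest part of this sum. All CHIR libraries (29.7 to 37.3) lay above all Control libraries (28.1 to 29.5) with TMM scaling. With library size only these groups overlapped. There CHIR replicate 3 read 28.7 CPM, below Control replicates 1 and 2 at 29.2 and 29.3 CPM. H3 ranged over 9.95 to 11.8, 11.7 to 12.5 and 10.8 to 14.5 CPM, and H4 summed to 7.04 ± 0.77, 6.46 ± 1.11 and 7.70 ± 1.46 CPM. All rows other than H2ac24 together read 68.4 ± 1.76, 72.7 ± 2.92 and 76.8 ± 8.36 CPM. CHIR replicate 1, at 85.7 CPM, was the highest library, and CHIR replicate 3, at 69.1 CPM, lay within the range of Control, 66.6 to 70.1 CPM.

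Some of the genes that act on histone mRNA were called. Of the 28 genes of 3′ end formation and decay, 1 changed with BRD0705, where 1.22% of all rows did. It was Snrpf, which fell, a shared Sm ring protein picked out after its value was seen (-0.40 ± 0.09, log2 ± standard error, adjusted p = 0.0351, and 0.136 with a GC and length offset). Its call held in 4 of 9 fits that leave out 1 library, with adjusted p of up to 0.168 in the alternatives. With CHIR 2 of the 28 rose and 1 fell, where 6.3% of all rows changed. DESeq2 called 2 of the 28 with BRD0705 and 5 with CHIR, and limma voom 1 and 3. At an unadjusted p under 0.05 by edgeR there were 7 with BRD0705, against 15.9% of all rows, and 11 with CHIR, against 20.5%. Npat, the histone gene activator that cyclin E-CDK2 phosphorylates, rose from 67.0 ± 5.30 to 80.8 ± 1.98 CPM (log2 0.27 ± 0.06, adjusted p = 0.016). Upf1, a helicase that takes part in histone mRNA decay, rose from 208 ± 5.24 to 238 ± 7.06 CPM (0.19 ± 0.05, adjusted p = 0.0293). Zfp473, a zinc finger protein of the processing complex, fell (-0.32 ± 0.08, adjusted p = 0.0248). The calls held in 6, 4 and 4 of 9 fits that leave out 1 library, with adjusted p of up to 0.0556, 0.0921 and 0.161. BRD0705 against CHIR gave 1 call, where 7.77% of all rows were called, Ncbp2, a subunit of the cap-binding complex, which was lower with BRD0705 (-0.23 ± 0.06, adjusted p = 0.0277, and up to 0.13 in the alternatives). Slbp was called in none of the comparisons, at 100.2 ± 1.80, 97.2 ± 8.34 and 104.9 ± 4.70 CPM in Control, BRD0705 and CHIR.

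Replication-independent histones gave a few calls of their own. Of 12 tested, 1 rose and 1 fell with BRD0705 against Control, where 1.22% of all rows changed, and 1 fell with CHIR, where 6.3% did. BRD0705 against CHIR gave 2 calls, H1f0 and H1f10, where 7.77% of all rows were called. H1f0, the linker histone of non-dividing and differentiating cells, fell with CHIR from 122.9 ± 6.63 to 95.5 ± 5.18 CPM (-0.36 ± 0.06, log2 ± standard error, adjusted p = 0.00153), and held in 9 of 9 fits that leave out 1 library. With BRD0705 it stood at 121.0 ± 6.91 CPM, and BRD0705 against CHIR gave 0.34 ± 0.06 with an adjusted p of 0.00232. H1f10, the linker histone H1.10, rose with BRD0705 (0.32 ± 0.08, adjusted p = 0.0456, and 0.162 with a GC and length offset), and H2az1, the H2A.Z gene, fell (-0.26 ± 0.06, adjusted p = 0.036, and 0.0699 with that offset). Without single libraries these passed in 3 of 9 fits each. H1f10 was also higher with BRD0705 than with CHIR (0.25 ± 0.08, adjusted p = 0.0479, 0.0534 with limma voom, and past the threshold in 2 of 9 fits that leave out 1 library).

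Of the 39 S phase genes, 0 passed with BRD0705 against Control by edgeR, where 1.22% of all rows did, while DESeq2 called 1 and limma voom 0. At an unadjusted p under 0.05 there were 6, against 15.9% of all rows. With CHIR 2 changed, against 6.3% of all rows, and both fell, E2f2 (-0.42 ± 0.08, log2 ± standard error, adjusted p = 0.00484), a transcription factor of the G1 to S step, and Mcm10 (-0.24 ± 0.05, adjusted p = 0.00759), a factor that starts replication forks. Both held in 9 of 9 fits that leave out 1 library. BRD0705 against CHIR gave 4 calls, against 7.77% of all rows, all higher with BRD0705 (E2f1, E2f2, Gins2 and Mcm10), with E2f2 at 0.57 ± 0.08 (adjusted p = 0.000319). The median of the 39 was -0.01 with BRD0705 and 0.01 with CHIR against Control. Of the 21 histone chaperones, 1 fell with BRD0705 against Control, where 1.22% of all rows changed, Nap1l1, which shuttles H2A and H2B (-0.23 ± 0.05, adjusted p = 0.047, and up to 0.238 in the alternatives). With CHIR 0 of the chaperones passed by edgeR, DESeq2 or limma voom, against 6.3% of all rows by edgeR, with 2 at an unadjusted p under 0.05, against 20.5%. With BRD0705 against Control, 8 of the 21 had an unadjusted p under 0.05, against 15.9% of all rows, and DESeq2 called 2. Nap1l1 was also the 1 call in BRD0705 against CHIR, where it was lower with BRD0705.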

How the data were processed

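The 9 libraries were grouped by their labels. The authors deposited whole-number counts per gene symbol, and a normalized signal table equal to the counts divided by 1 factor per library (100% of values whole within 0.01 and equal to the deposited counts). The submitters' processing notes name RSEM, DESeq2 and mm10 without roles, so the counts may be rounded estimates. The aligner, annotation and use of strand are not given in the sources used here.

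The test was that of edgeR 4.0.16 under R 4.3.3 (TMM scaling, filterByExpr with a minimum count of 10, quasi-likelihood F test, 3 group means over all 9 libraries, 6 residual degrees of freedom, 2-sided, Benjamini-Hochberg over 15366 rows, threshold 0.05). DESeq2 1.42.0, limma 3.58.1 (voom) and the other alternatives are listed with their effect in the closing section. On the reads recovered from the normalized table edgeR called 188, 968 and 1194 rows, the same numbers as on the counts. The scripts were tested on simulated data, where edgeR recovered changes of low-count genes less often than those of others; the required recovery was set on the better-counted genes after a first bound over all tested genes was missed. Single genes were refitted under the alternatives only where the text prints their test, a choice made after seeing the values. CPM uses TMM-scaled library sizes. Lengths and hairpins come from GENCODE vM39 on GRCm39, matched by symbol, and positions and promoters from RefSeq on GRCm38.p6. Protein sequences were not used here.

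Histone rows follow the symbol rule. The members, the gene lists and the naming rule were chosen with earlier results of these data known. Named were called members, the 3 most abundant per class, the 3 with the smallest p per comparison, and leading genes of each list.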

Additional observations from a re-analysis of the deposited data

How the results depend on the processing

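With no filter on low counts 61 histone rows entered the fit, and the rows called were 1 for BRD0705 against Control (H3c14), 2 for CHIR against Control and 1 for BRD0705 against CHIR (H2ac19 in both), where the counts of 15366 tested rows gave 0, 1 and 0. Leaving out each library in turn gave 0 to 0, 0 to 1 and 0 to 1. H2ac19 without BRD0705 replicate 1 gave the call in BRD0705 against CHIR, at -3.57 (adjusted p 0.0357).

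Over all rows, leaving out each library gave 21 to 305, 514 to 1070 and 616 to 1313 calls in these comparisons. BRD0705 against Control gave 188 calls, and 489 with DESeq2, 609 with no low-count filter, 116 with a GC and length offset and 103 with that offset and the replicate block. CHIR against Control gave 968, and 1538 and 1520 with the offset, without and with the block. The cause was not tested.

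Replicate numbers come from the labels. Same-numbered libraries did not deviate together (mean correlation -0.0012 over 9 pairs, 2 of 9 libraries closest to their own number). The replicate block gave 222, 973 and 1177 calls over all rows and 0, 1 and 0 of the histone rows.

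Values near 0 changed sign. H2ac24 gave -0.00097 for BRD0705 against CHIR with the GC and length offset and -0.00016 to 0.114 for CHIR against Control over the fits that leave out 1 library, lowest without CHIR replicate 3. H3c15 gave -0.12 to 0.0044 over such fits for BRD0705 against CHIR, highest without CHIR replicate 1. H4c9 for CHIR against Control gave -0.0086 with the replicate block, -0.0071 with limma voom, -0.0237 with library size only, and -0.24 to 0.18 over the fits that leave out 1 library, below 0 without CHIR replicate 1, Control replicate 2 or Control replicate 3. DESeq2-type size factors in edgeR, a mean CPM of at least 1 and fits of only the groups compared kept the number of histone calls, as did 2 alternatives added after seeing the data, recovered reads and copies summed. Class sums moved by less than 1 SD with library size only and on the deposited normalized values, and no symbol occurred more than once. The H2B sums of CHIR and Control, apart with TMM scaling, overlapped with library size only. Low counts limit most histone rows.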
